A study of Mus musculus with 2 samples.

Results

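The genes described here are 45 genes that fold secretory proteins in the endoplasmic reticulum (ER), send misfolded ones to degradation, or sense their build-up. They were selected by gene name, with earlier results of these data known. All 45 were found once each among the 16803 genes of the deposited expression table. The table came from NE4C cells, an established line of mouse neural stem cells, and compared an untreated control with cells given homocysteine thiolactone (HTL), the cyclic thioester of homocysteine that can acylate lysines of proteins. Each condition was represented by 1 RNA-seq library, so no difference had a replicate check, and every interval and p-value below covers counting error between these 2 libraries and not the spread between cultures. No other agent or allele was named for either group, and the dose and duration of the HTL treatment of the sequenced cells were not given in the sources used here. The study's methods describe a low-serum step before HTL for NE4C cultures, and whether either sequenced culture had it was not stated.

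The ER is where secreted and membrane proteins enter the secretory pathway, and its lumen holds Hsp70 and Hsp90 chaperones, lectin chaperones that read N-glycans, oxidoreductases that form disulfide bonds and prolyl isomerases. Proteins that fail to fold are moved back to the cytosol and broken down by the proteasome, a route called ER-associated degradation (ERAD). When unfolded proteins accumulate, the membrane sensors IRE1, ATF6 and PERK start the unfolded protein response (UPR), in which spliced XBP1 and cleaved ATF6 act as transcription factors on ER folding and ERAD genes. In promoters of these genes both factors are known for acting at the ER stress element, a CCAAT box bound by NF-Y followed at a fixed distance by CCACG.

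The control library held 10350646 reads assigned to genes and the HTL library 9102057. Testing asked for 10 or more reads summed over the libraries, which left 13442 genes and all 45 members, the least read of which was Derl3 with 72 reads in total. The log2 ratio given for each gene is HTL treatment over control after scaling to the library totals, with its 95% exact interval in brackets. Levels of different genes are set side by side as FPKM, which is per transcript length. Shares of reads, and genes named as most read, are not corrected for length. Over all genes tested the median of this ratio was -0.14. Of 12 neural stem cell markers 11 were tested, and by the criteria given below 3 were called lower and 0 higher, where 7.98% and 2.81% of all genes tested were. On the adjusted p alone 5 were lower and 1 higher. Those called lower were Sox1, which went from 48 to 12 reads, Sox2, from 894 to 285, and Vim, from 1487 to 648. Msi2, with 1433 and 762 reads, and Cdh2, with 831 and 566, were lower on the adjusted p alone and Prom1, with 443 and 555, higher. Nes had 1617 and 1365 reads and Fabp7, which was not tested, had 2 reads in each library. Summed FPKM was 246 in control and 176 after HTL treatment for these 12 markers, with none of them at 0 reads. For 8 neuron markers it was 47.9 and 59.4, a sum carried by Tubb3 (16.3 and 24.8 FPKM) and Stmn2 (15.7 and 23.3 FPKM), which were higher on the adjusted p alone. The median log2 ratio of these 8 was -0.53, 3 of them lay above 0, and Dcx, with 88 and 29 reads, was called lower. Summed FPKM was 4.04 and 4.43 for 5 glia markers, 2.51 and 1.84 for 4 microglia and macrophage markers, and 3.36 and 3.08 for 7 fibroblast and endothelial markers. The part of these shifts in the results on ER genes was not tested, and in whole-culture RNA a change in the make-up of the culture and a change in RNA per cell cannot be told apart.

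A first view of these genes is given by their promoters, whose sequence the choice of members did not use. The ER stress element is, however, known from promoters of ER folding and ERAD genes. Its frequency among the members was therefore partly set by their choice and is no independent result. RefSeq sequence of the GRCm38.p6 mouse genome, from 250 bases before to 50 bases after the annotated start, was matched by gene identifier for 38 of the 45 genes. Atf6, Derl1, Erlec1, Hyou1, Manf, Sil1 and Ube2g2 had no entry. The motifs searched on both strands were the ER stress element (CCAAT, any 9 bases, then CCACG), the shorter ER stress element II (ATTGG, 1 base, then CCACG) and the UPR element cores TGACGTGG and TGACGTGT. The promoter of Hspa5, which encodes the ER Hsp70 chaperone BiP, is shown whole because Hspa5 had the highest ratio of the 45 genes, with its exact ER stress element in capitals.
Hspa5 (chr2:34771840-34772139, plus strand): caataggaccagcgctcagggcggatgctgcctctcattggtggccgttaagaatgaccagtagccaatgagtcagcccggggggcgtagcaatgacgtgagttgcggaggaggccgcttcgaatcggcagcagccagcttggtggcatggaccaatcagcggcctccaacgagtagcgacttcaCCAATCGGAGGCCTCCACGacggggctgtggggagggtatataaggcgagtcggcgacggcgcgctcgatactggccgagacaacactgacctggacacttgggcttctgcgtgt
The element lay from -65 to -47 relative to the start. Of the 38 members with a promoter sequence, 10 held at least 1 exact element, or 26.3%, against 39 of 32851 mouse promoters, or 0.119%, and 0.170% of the tested genes with a promoter sequence. The other 9 are shown with 12 bases on each side, read along the gene's own strand, so that an element on the opposite strand appears as CGTGG before ATTGG.
Calr (chr8:84847063-84847105, minus strand): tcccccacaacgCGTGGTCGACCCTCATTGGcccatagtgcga
Canx (chr11:50325788-50325830, minus strand): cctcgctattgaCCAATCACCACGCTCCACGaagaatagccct
Creld2 (chr15:88819508-88819550, plus strand): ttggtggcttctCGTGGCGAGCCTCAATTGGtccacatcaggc
Derl3 (chr10:75893230-75893272, plus strand): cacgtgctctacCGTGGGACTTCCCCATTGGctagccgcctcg
Dnajc3 (chr14:118937815-118937857, plus strand): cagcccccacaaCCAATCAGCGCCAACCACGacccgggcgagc
Ero1lb (chr13:12565670-12565712, plus strand): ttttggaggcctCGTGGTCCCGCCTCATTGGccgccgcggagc
Hsp90b1 (chr10:86705626-86705668, minus strand): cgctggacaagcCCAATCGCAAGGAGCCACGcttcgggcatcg
Hsp90b1 (chr10:86705521-86705563, minus strand): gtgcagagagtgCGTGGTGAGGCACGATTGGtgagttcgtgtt
Pdia6 (chr12:17266479-17266521, plus strand): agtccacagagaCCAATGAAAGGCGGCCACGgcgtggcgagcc
Syvn1 (chr19:6046520-6046562, plus strand): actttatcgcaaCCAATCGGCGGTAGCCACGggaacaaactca
Hsp90b1, for the ER Hsp90 chaperone GRP94, was the member with a pair of exact elements, 1 on each strand. Inexact matches were not counted here, and the Hspa5 window held 4 CCAAT matches. The ER stress element II was held by Herpud1 and Dnajb11, against 0.0365% of all promoters and 0.0848% of tested genes, and is shown in capitals in the same way.
Herpud1 (chr8:94386365-94386399, plus strand): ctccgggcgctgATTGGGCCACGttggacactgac
Dnajb11 (chr16:22857840-22857874, plus strand): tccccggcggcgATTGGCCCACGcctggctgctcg
In Herpud1 it lay from -52 to -42, whereas in Dnajb11 it lay from 7 to 17, after the annotated start.

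In the HTL library most of these genes took a larger share of reads than in the control library. Calls used the cutoffs of the study's methods, an adjusted p no higher than 0.001 together with a log2 ratio of 1 or more in either direction, and p came from an exact binomial test adjusted by Benjamini-Hochberg over all genes tested. By this rule 21 of the 45 genes (46.7%) were called higher after HTL treatment, where 2.81% of all genes tested were, and 0 were called lower, where 7.98% of all genes tested were. On the adjusted p alone, 30 members were higher, beside 14.5% of all genes tested, and 2 were lower, beside 24.1% of all genes tested. Under trimmed-mean scaling, which moved the median over all genes tested from -0.14 to -0.0073, 22 members were called higher and 0 lower, and the calls over all genes went from 378 higher and 1072 lower to 553 (4.11%) and 798 (5.94%). The median log2 ratio of the 45 genes was 0.79, or 0.77 without Hspa5, and 38 of them lay above 0. When all genes were ranked by ratio from the highest, Hspa5 stood at 24, Herpud1 at 38, Manf at 47 and Ero1lb at 87, and 22 members were among the top 1000. Edem1 lay just inside the cutoff with a log2 ratio of 1.01 and Sel1l just outside it with 0.91. These calls rest on counting error alone. When a coefficient of variation of 0.1 between cultures was assumed in place of replicates, 21 members were called higher and 0 lower, beside 2.2% and 6.18% of all genes tested. When 0.2 was assumed, 4 members were called higher, namely Hspa5, Herpud1, Manf and Pdia4, and 0 lower. At that setting 38 of all genes tested (0.283%) were called higher and 82 (0.61%) lower. At a coefficient of 0.4, 0 members were called in either direction, beside 1 gene higher (0.00744%) and 5 lower (0.0372%) among all genes tested.

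**Figure D1:**
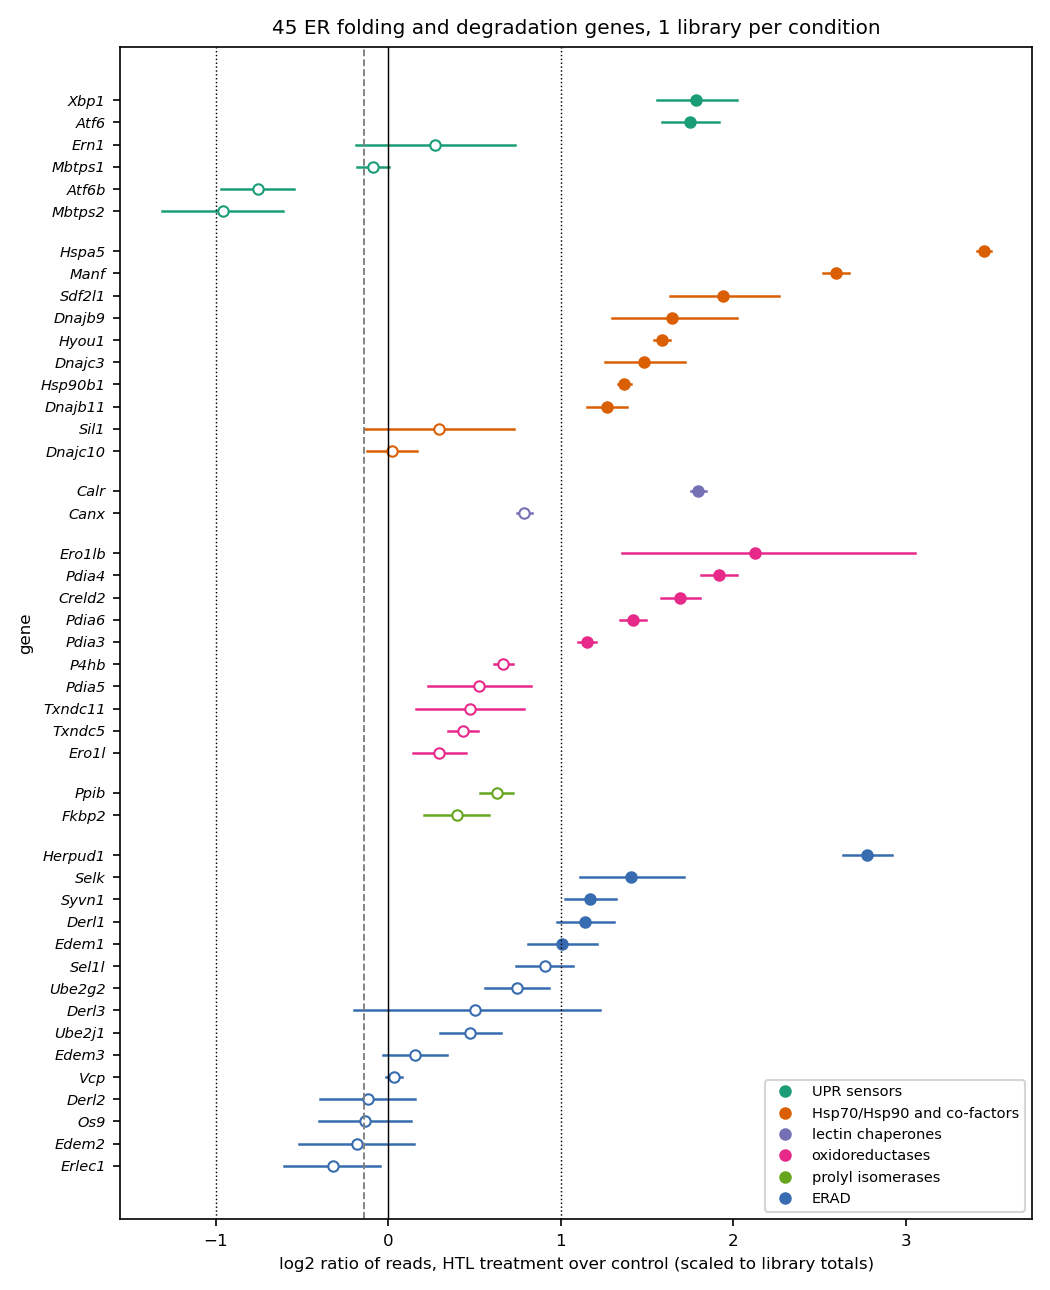
Log2 ratio of reads (HTL treatment over control, scaled to library totals; horizontal axis) for each of the 45 genes, grouped and coloured by role, with lines for 95% exact intervals from counting error, filled points for genes called higher and open points for genes not called. The dashed line is the median of all genes tested (-0.14) and the dotted lines are log2 ratios of -1 and 1; the filled points run from Edem1 at 1.01 to Hspa5 at 3.45.

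The sensors of the UPR and the enzymes that process them did not move together. Of 6 genes, 2 were called higher, beside 2.81% of all genes tested, and the median log2 ratio was 0.091. Xbp1 (chr11:5420662-5425896, plus strand, in the NCBIM37 mouse genome), the transcription factor made by IRE1-dependent splicing, went from 206 to 625 reads and from 8.88 to 30.5 FPKM, a log2 ratio of 1.78 [1.56, 2.02]. The table gave 1 value per gene, so spliced and unspliced Xbp1 were not separated. Atf6 (chr1:172634588-172797902, minus strand), the membrane-bound factor that is cleaved in the Golgi, went from 399 to 1179 reads and from 5.10 to 17.1 FPKM, a log2 ratio of 1.75 [1.58, 1.92]. Its paralog Atf6b (chr17:34784091-34792019, plus strand) had 542 reads in control and 282 after HTL treatment, a log2 ratio of -0.76 [-0.97, -0.55], and was lower on the adjusted p alone (1.9e-12, exact binomial test, Benjamini-Hochberg) without reaching the 2-fold cutoff. The ratio of Atf6 to Atf6b in FPKM was 0.253 in control and 1.44 in the HTL library, so their order reversed. The log2 ratios of these paralogs differed by 2.51 [2.24, 2.77]. Here and below such a difference between genes does not depend on how the libraries are scaled, and the pairs were chosen after the values were seen.

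Site-1 and site-2 proteases, which cut ATF6 in turn in the Golgi, also parted. Mbtps1, for the site-1 protease, had 2001 reads in control and 1655 after HTL treatment, a log2 ratio of -0.088 [-0.18, 0.0062] that turned above 0 under 3 other scalings. Mbtps2, for the site-2 protease, had 223 and 101 reads, with a log2 ratio of -0.95 [-1.31, -0.61] and an adjusted p of 6.3e-08 in the same exact binomial test. Its exons overlap Yy2 on the same strand, a gene with 100 and 46 reads, and its reads were estimates that were not whole numbers. The difference between the proteases was 0.87 [0.52, 1.22]. Ern1, which encodes the kinase and nuclease IRE1, was thinly read, with 80 and 85 reads and a log2 ratio of 0.27 [-0.18, 0.73], and a difference was not detectable at this depth.

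The Hsp70 and Hsp90 chaperones with their co-factors had the highest median of the 6 roles, 1.53. Of these 10 genes 8 were called higher, beside 2.81% of all genes tested. Hspa5 (chr2:34627490-34632051, plus strand) went from 6184 to 59487 reads. Its level rose from 234.6 to 2560 FPKM, which moved it from rank 3 to rank 1 among the 45 genes. The log2 ratio was 3.45 [3.41, 3.49], or 10.9-fold. Hsp90b1 (chr10:86152954-86168254, minus strand) went from 7569 to 17178 reads and from 264 to 680 FPKM, a log2 ratio of 1.37 [1.33, 1.41]. Thus Hspa5 lay below Hsp90b1 in FPKM in the control library and above it in the HTL library, and their log2 ratios differed by 2.08 [2.03, 2.14].

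The partners of BiP had lower ratios than BiP itself. Nucleotide exchange factors release ADP from BiP, and of these Hyou1 (chr9:44187573-44200452, plus strand), the large ER Hsp70 GRP170, went from 4857 to 12830 reads, a log2 ratio of 1.59 [1.54, 1.63]. Sil1, the other exchange factor, had 89 and 96 reads, with a ratio on the log2 scale of 0.29 [-0.14, 0.73]. The 2 differed by 1.29 [0.87, 1.71]. Among the co-chaperones with a J domain, which stimulate the ATPase of BiP, Dnajb9 went from 89 to 246 reads (1.65 [1.30, 2.02]), Dnajc3 from 221 to 544 (1.48 [1.26, 1.72]) and Dnajb11 from 891 to 1884 (1.27 [1.15, 1.38]). Dnajc10, a J-domain protein that is also a disulfide reductase, had 809 and 723 reads, which gave a log2 ratio of 0.023 [-0.12, 0.17]. In FPKM, the summed level of the 4 J-domain genes went from 77.6 to 160, or 2.06-fold, and the level of Hspa5 per unit of them from 3.02 to 16.0. Per unit of the 2 exchange factors together, it went from 2.13 to 7.98.

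Small ER proteins that work beside BiP gave some of the highest ratios. Manf (chr9:106740643-106794310, minus strand), a secreted neurotrophic factor that also binds BiP, went from 1636 to 8683 reads and from 71.6 to 431 FPKM, a log2 ratio of 2.59 [2.52, 2.67]. Its exons overlap those of Vprbp on the other strand, which had 1255 and 1370 reads, and use of strand in the counting was not given in the sources used here. Its paralog Cdnf lay 3.19 [2.23, 4.14] below Manf in log2 ratio. Cdnf was thinly read, with 24 and 14 reads and a log2 ratio of -0.58 [-1.66, 0.42]. Sdf2l1, a partner of the J-domain proteins, went from 109 to 369 reads, a log2 ratio of 1.94 [1.63, 2.27], and differed from its paralog Sdf2 by 1.39 [1.04, 1.75]. Its promoter is shown because it held 0 exact ER stress elements and yet 4 CCAAT and 3 CCACG matches, in capitals on either strand.
Sdf2l1 (chr16:17132334-17132633, minus strand): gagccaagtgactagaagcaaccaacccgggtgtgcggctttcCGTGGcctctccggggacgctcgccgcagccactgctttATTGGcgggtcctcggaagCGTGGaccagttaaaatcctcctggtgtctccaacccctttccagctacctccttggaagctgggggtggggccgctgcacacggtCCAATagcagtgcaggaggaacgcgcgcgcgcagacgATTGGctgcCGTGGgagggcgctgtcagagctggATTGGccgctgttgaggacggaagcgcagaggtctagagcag
None of these matches stood 9 bases apart in the order of the element.

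Among the lectin chaperones, which hold glycoproteins in the folding cycle, the soluble member had a higher ratio than the membrane-bound one. Calr (chr8:87365749-87370833, minus strand), for calreticulin, went from 5871 to 17921 reads and from 292 to 1013 FPKM, a log2 ratio of 1.80 [1.75, 1.84]. Canx (chr11:50107969-50139175, minus strand), for calnexin, had 6590 and 10010 reads, and its log2 ratio of 0.79 [0.74, 0.83] passed the adjusted p alone (2.1e-264, exact binomial test, Benjamini-Hochberg). Calr stood at 1.99 times the FPKM of Canx in control and at 4.0 times after HTL treatment. The log2 ratios differed by 1.01 [0.95, 1.07]. Both promoters held the ER stress element shown above.

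Of the 10 oxidoreductases 5 were called higher, beside 2.81% of all genes tested. The others lay between 0.30 and 0.67 in log2 ratio, so that the lowest was still above 0. Pdia4 (chr6:47746141-47763511, minus strand), a protein disulfide isomerase with several thioredoxin domains, went from 962 to 3191 reads and from 35.5 to 134 FPKM, a log2 ratio of 1.91 [1.81, 2.02]. Creld2, an ER-resident protein with EGF-like domains, went from 884 to 2513 reads (1.69 [1.58, 1.80]), and Pdia6 from 2100 to 4933 (1.42 [1.34, 1.49]). Pdia3, the disulfide isomerase that works with calnexin and calreticulin, went from 4503 to 8810 reads (1.15 [1.10, 1.21]). P4hb, the canonical disulfide isomerase PDI, had 4670 and 6515 reads, a log2 ratio of 0.67, which was 1.25 [1.13, 1.37] below that of Pdia4. Before treatment P4hb had the highest level of the 10 genes, at 177 FPKM, and after it Pdia3 had, at 362 FPKM.

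The oxidases that recharge the disulfide isomerases differed between paralogs. Ero1lb (chr13:12658150-12701793, plus strand) went from 16 to 63 reads, a log2 ratio of 2.13 [1.35, 3.05] at levels of only 0.36 and 1.61 FPKM. It was no longer called when 1 was added to each FPKM, with a log2 ratio of 0.94. Ero1l had 674 and 728 reads, 14.6 and 17.8 FPKM and a log2 ratio of 0.30 [0.14, 0.45], the lowest of the oxidoreductases. The paralogs differed by 1.87 [1.06, 2.67] in log2 ratio, while in FPKM Ero1l stayed above Ero1lb in both libraries. The remaining members, Txndc5, Txndc11 and Pdia5, had log2 ratios of 0.43, 0.47 and 0.52. Neither of the 2 prolyl isomerases was called, although Ppib, which encodes cyclophilin B, had 1505 and 2046 reads, a log2 ratio of 0.63. Fkbp2 had 436 and 505 reads, a log2 ratio of 0.40.

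Of the 15 ERAD genes 5 were called higher and 0 lower, beside 2.81% and 7.98% of all genes tested. The 0 lower is near the latter share. Their median log2 ratio was 0.50. Herpud1 (chr8:96910338-96919277, plus strand), a membrane protein that gathers the ubiquitin ligase complex, went from 471 to 2839 reads and from 24.4 to 167 FPKM, a log2 ratio of 2.78 [2.64, 2.92]. Syvn1 (chr19:6046576-6053712, plus strand), the ubiquitin ligase HRD1, went from 577 to 1143 reads (1.17 [1.03, 1.32]). Its exons overlap those of Mrpl49 on the other strand, which had 1548 and 1328 reads. Sel1l, the partner that stabilizes HRD1, had 484 and 798 reads, a log2 ratio of 0.91 [0.74, 1.07], which passed the cutoff under trimmed-mean scaling at 1.04. Syvn1 and Sel1l differed by 0.26 [0.047, 0.48], and Herpud1 exceeded Syvn1 by 1.61 [1.40, 1.81].

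Other steps of ERAD were split within gene families. Derl1, a membrane protein of the exit channel, went from 461 to 894 reads (1.14 [0.98, 1.31]), whereas Derl2 had 248 and 201 (-0.12, turning to 0.013 under trimmed-mean scaling) and Derl3 32 and 40 (0.50 [-0.20, 1.23]). The EDEM proteins trim mannose from misfolded glycoproteins, and Edem1 went from 322 to 570 reads (1.01 [0.81, 1.21]), while Edem3 had 492 and 482 (0.16) and Edem2 174 and 135 (-0.18). Edem1 exceeded Edem2 by 1.19 [0.81, 1.57] and Edem3 by 0.85 [0.59, 1.12]. Edem1 lay so near the cutoff that adding 5 reads in place of 0.5 took it to 0.998, below the call. Selk, a small selenoprotein of the ER membrane, went from 134 to 313 reads, a log2 ratio of 1.41 [1.11, 1.71].

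Erlec1, Os9, Vcp, Ube2g2 and Ube2j1 were not called in either direction. Erlec1, a lectin that recognises trimmed glycans, had 263 and 185 reads and the lowest log2 ratio of the ERAD genes, -0.32 [-0.60, -0.045], with a Benjamini-Hochberg adjusted p of 0.0374 in the exact binomial test. The related lectin Os9 had 263 and 211 reads, a log2 ratio of -0.13, which turned to 0.0041 under median-of-ratios scaling. Vcp, the ATPase that pulls substrates into the cytosol, was the most read ERAD gene in both libraries, with 7912 and 7129 reads, 229 and 234 FPKM, and a log2 ratio of 0.035 [-0.011, 0.081]. Set against it, Syvn1 was higher by 1.14 [0.98, 1.29]. Ube2g2 and Ube2j1, ubiquitin-conjugating enzymes of the pathway, had log2 ratios of 0.74 and 0.48 and were higher on the adjusted p alone, although exons of Ube2g2 overlap those of Sumo3 on the same strand, a gene with 1605 and 1903 reads.

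**Figure D2:**
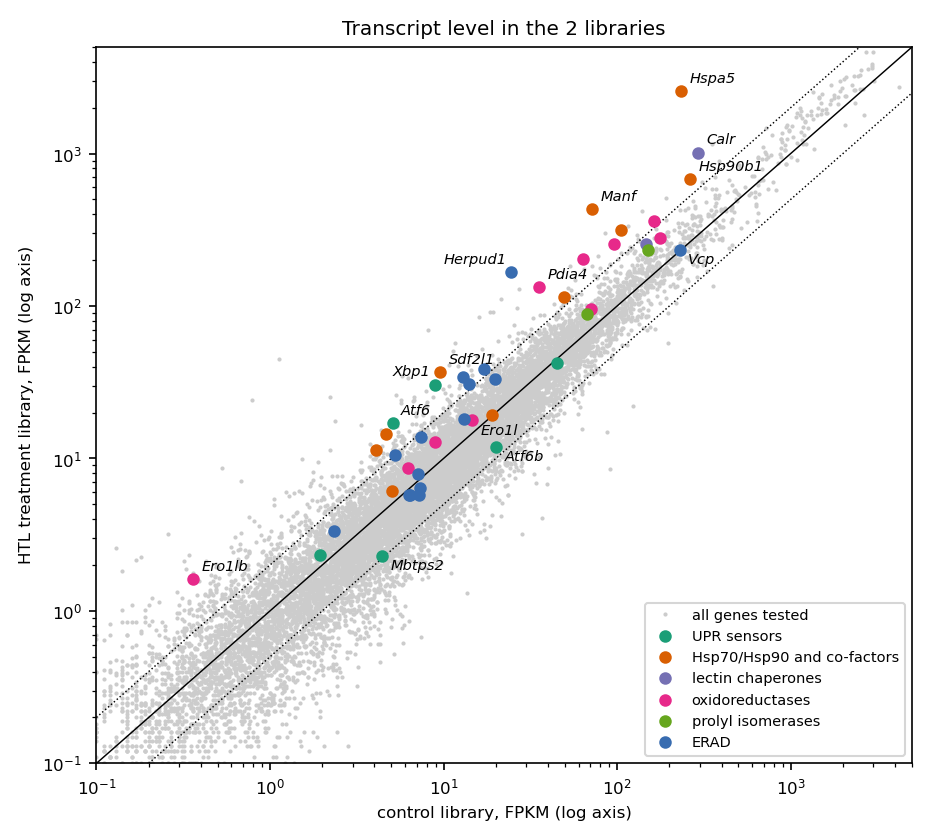
Level of each of the 45 genes in FPKM in the control library (horizontal axis) and the HTL library (vertical axis), both on log axes, coloured by role over grey points for all genes tested, with a solid line of equal levels and dotted lines of 2-fold differences. Levels ran from 0.36 to 292 FPKM in control and from 1.61 to 2560 FPKM after HTL treatment, with Hspa5 and Calr above 1000.

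In level, the 45 genes spanned 0.36 to 292 FPKM in control, with Ero1lb lowest and Calr highest, and 1.61 to 2560 FPKM after HTL treatment, with Ero1lb still lowest and Hspa5 highest. The number of members at 100 FPKM or more went from 9 to 15. Across the 45 genes the log2 ratio had a Spearman correlation of 0.24 with the control FPKM and of -0.25 with transcript length, which across all genes tested were 0.075 and -0.18. These are descriptions over genes of the same 2 libraries, and genes are not independent replicates.

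As a share of all reads, the 45 genes went from 0.668% [0.663, 0.673] to 2.0% [1.99, 2.01], a 2.99-fold difference. Hspa5 alone went from 0.0597% to 0.654% and accounted for 44.6% of the added share. Its part of the members' reads went from 8.94% to 32.7%. Without it, the other genes went from 0.608% to 1.35% of all reads, or 2.21-fold. By role, the fold of the shares was 5.17 for the Hsp70 and Hsp90 chaperones with their co-factors, 2.55 for the lectin chaperones, 2.08 for the oxidoreductases, 1.49 for the prolyl isomerases, 1.44 for the ERAD genes and 1.29 for the sensors. Without the gene of each role with the most reads over both libraries, a setting added after seeing the data, the fold was 2.97 for the chaperones (without Hspa5), 1.73 for the lectin chaperones (without Calr), 2.03 for the oxidoreductases (without Pdia3), 1.32 for the prolyl isomerases (without Ppib), 2.13 for the ERAD genes (without Vcp) and 1.78 for the sensors (without Mbtps1). Hspa5, Calr and Pdia3 led their roles through their HTL reads. Without the gene most read in control the fold was 6.48 for the chaperones (without Hsp90b1), 3.47 for the lectin chaperones (without Canx) and 2.29 for the oxidoreductases (without P4hb), and in the other roles the gene left out was the same. The values and the order of the roles thus depended on single genes. With Vcp included, the part of ERAD genes in the members' reads went from 18.4% to 8.86%. The 6 most read members after HTL treatment, Hspa5, Calr, Hsp90b1, Hyou1, Canx and Pdia3, made up 51.5% of the members' reads in control and 69.3% after it.

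**Figure D3:**
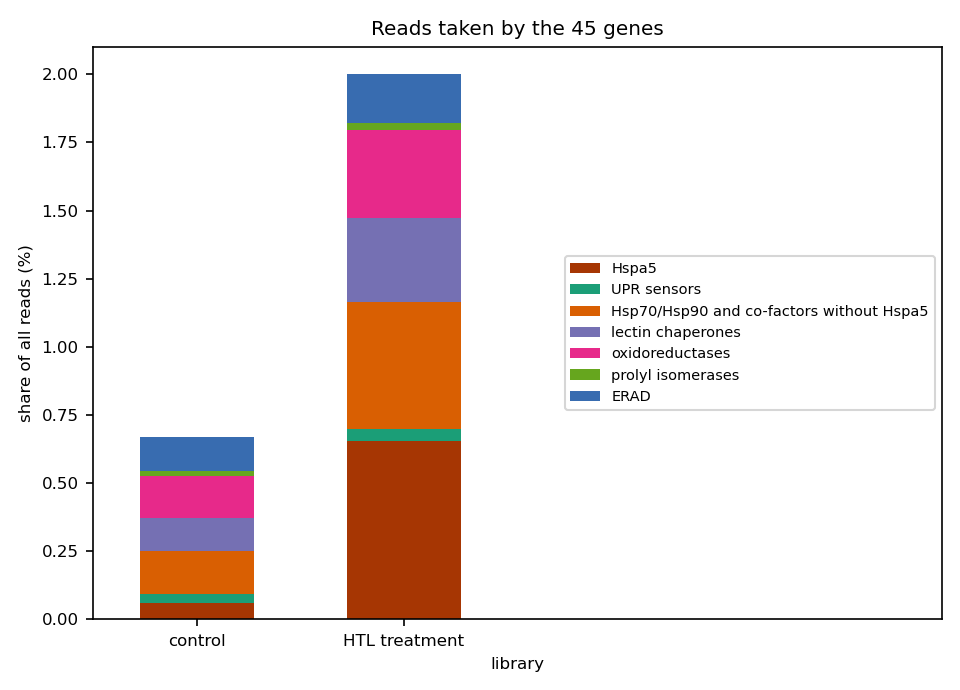
Share of all reads of a library (%, vertical axis) taken by the 45 genes in the control and HTL libraries, stacked by role with Hspa5 set apart from its role. The whole bar is 0.668% in control and 2.0% after HTL treatment, and the Hspa5 segment is 0.0597% and 0.654%.

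Chaperones of other compartments and further ER genes were set beside the members, with 2.81% of all genes tested called higher and 7.98% lower for comparison. In the cytosol, 0 of 22 chaperones were called in either direction, with a median log2 ratio of -0.022 and values from -0.35 for Tcp1 to 0.91 for Bag3. In mitochondria, 0 of 14 were called, with a median of 0.10 and values from -0.83 for Hspd1 to 0.59 for Hspa9. Within the Hsp70 family, Hspa5 exceeded the cytosolic Hspa8 by 3.45 [3.41, 3.49] and the mitochondrial Hspa9 by 2.87 [2.81, 2.92]. Relative to Hspa8, the FPKM of Hspa5 went from 0.0780 to 0.851. Likewise, Hsp90b1 exceeded the cytosolic Hsp90ab1 by 1.33 [1.29, 1.37]. Among 37 other ER folding genes 3 were called higher and 1 lower, with a median of 0.26 and a range from -1.87 for Uggt2, a glycoprotein glucosyltransferase, to 1.12 for Erp44, a retrieval factor of the early secretory pathway. Among 32 other ERAD genes 1 was called higher, Vimp at 1.55, which went from 314 to 811 reads and recruits VCP to the ER membrane. The median there was 0.14, and the lowest value was -0.89, for Ngly1.

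The PERK arm, the branch of the UPR that phosphorylates eIF2alpha, was measured for 10 genes, with a median log2 ratio of 0.73. Of these, 4 were called higher and 0 lower, beside 2.81% and 7.98% of all genes tested. Trib3, a pseudokinase induced downstream of ATF4, was highest and went from 173 to 1297 reads (3.09). The lowest value was -0.23, for Eif2s1, which encodes eIF2alpha itself. Eif2ak3, the gene for PERK, lay at -0.21, and Ern1 exceeded it by 0.48 [-0.024, 0.99], an interval that includes 0.

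**Figure D4:**
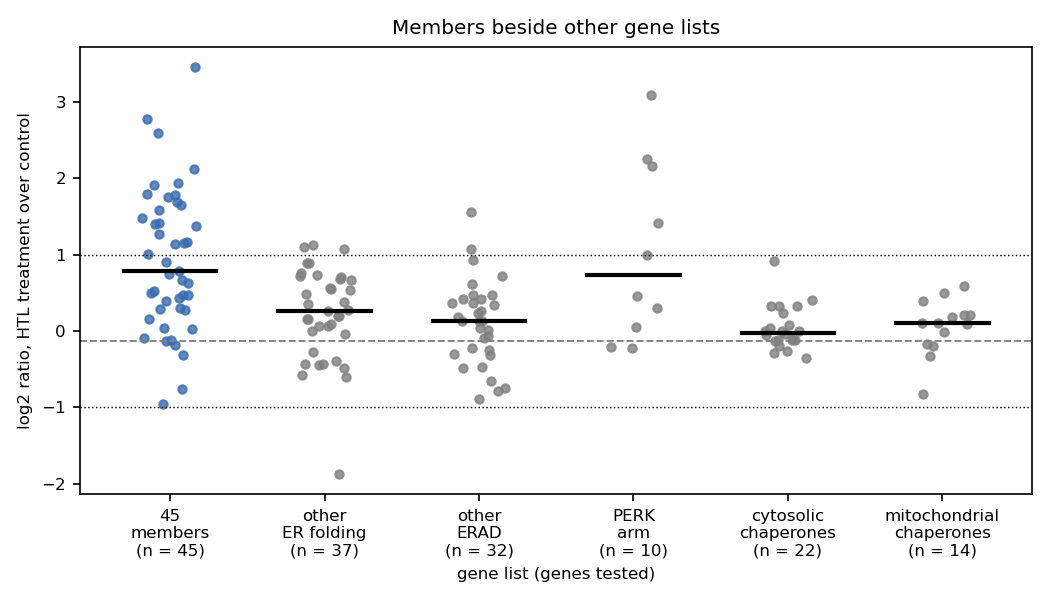
Log2 ratio of reads (HTL treatment over control) on the vertical axis for the 45 members and for each tested gene of 5 other lists, with 1 point per gene, a bar at each median, a dashed line at the median of all genes tested and dotted lines at -1 and 1. The median is 0.79 for the members and -0.022 for the cytosolic chaperones, and Hspa5 is the highest point at 3.45.

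The promoter sequences shown above were then set beside the ratios. Of the 17 genes called higher that had a promoter sequence, 8 held the exact ER stress element and a further 2 the ER stress element II. Of the 21 genes that were not called, 2 held the former, Canx and Derl3, and 0 the latter. The median log2 ratio was 1.45 for the 10 genes with the element and 0.47 for those without it, and the lowest with it was 0.50, in Derl3. The core TGACGTGG was held by Ube2j1, Vcp, Txndc5 and Txndc11, none of them called higher, against 0.676% of all promoters and 1.05% of tested genes, and TGACGTGT by 0 members against 0.472% and 0.659%. The separate boxes were common, with CCAAT in 28 members (73.7%, against 37.4% of all promoters and 43.7% of tested genes) and CCACG in 33 (86.8%, against 32.8% and 52.0%). When 1 mismatch was allowed in CCACG, a setting added after seeing the data, the element was held by 17 members, or 44.7%, against 0.998% of all promoters and 1.58% of tested genes, and 12 of the 17 were called higher.

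**Figure D5:**
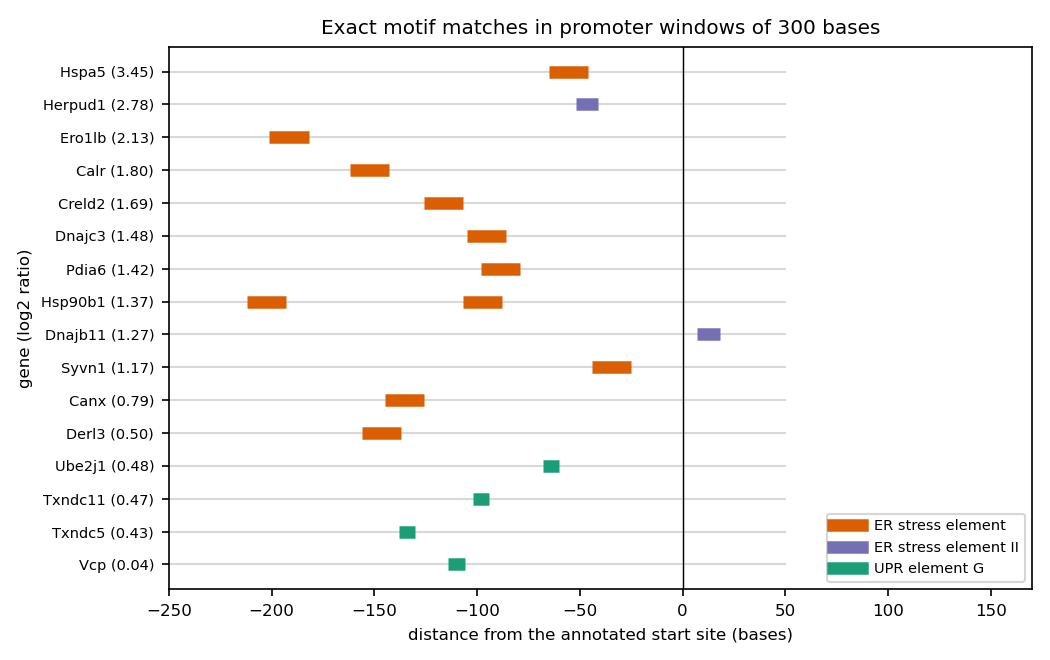
Position of each exact motif in the members' promoters (horizontal axis, bases from the annotated start) for 16 genes ordered by log2 ratio (vertical axis), with the kind of motif given by colour and UPR element G standing for TGACGTGG. The ER stress elements lie between -212 in Hsp90b1 and -26 in Syvn1, all before the start, and the ER stress element II of Dnajb11 is the motif after it, at 7 to 17.

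The element was also held by genes outside the 45. Of 10615 tested genes with a promoter sequence, 18 (0.170%) held the exact element, 10 of which were the members. Of the other 8, 0 were called higher and 1 lower, Adcy3 at -1.16, and their log2 ratios ran from there to 0.65 for Alg12, with a median of -0.42. Over all genes tested 2.81% were called higher, so a count of 0 among 8 is near that share. The matches describe letters in a 300-base window and are neither evidence of binding nor a cause, and genes without a match may hold one elsewhere.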

How the data were processed

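RNA of NE4C cells was prepared with an Illumina TruSeq kit and read on a BGISEQ-500. The authors deposited a table with, for each gene and library, an estimated count (RSEM, assigned reads), an FPKM value and a transcript length. Its columns of the authors' own comparison (log2 ratio, p-value and FDR) were not used. The submitters' processing notes name mm9. The mapper's version, the annotation release and use of strand are not given in the sources used here.

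Estimated counts were rounded. With 1 library per condition, edgeR's quasi-likelihood test and DESeq2 could not be fitted. Genes with 10 or more reads summed over the libraries entered an exact binomial test (two-sided) against the library totals, with Benjamini-Hochberg adjustment over 13442 genes (SciPy 1.17.1, Python 3.11.15). The ratio was taken after 0.5 read scaled to the totals was added, and intervals are exact Clopper-Pearson at 95%. Intervals of differences between genes came from the standard error of the log odds. Intervals cover counting error only. An assumed coefficient of variation was put into the exact test of edgeR 4.0.16 (R 4.3.3). Other alternatives changed the scaling, the filter, the added reads, the FPKM scale and the transcript length.

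Within each of 6 roles, every called gene and the lowest gene are named, and all genes of roles of 6 or fewer. Further ones, and the gene pairs, were chosen after their values were seen. The members and lists were chosen with earlier results of these data known. Gene coordinates are from GENCODE on NCBIM37 (the assembly of mm9) and promoters from RefSeq on GRCm38.p6. For 3 members (Dnajb11, Dnajb9 and Mbtps2) a count was not whole. Exons of 10 members overlap a gene on the other strand and those of 4 a gene on the same strand. A comparison of C-terminal retention tails was not made, since protein sequences were not used here.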

Additional observations from a re-analysis of the deposited data

How the results depend on the processing

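Of the settings that changed the scaling, filter, added reads or FPKM scale, each left between 19 and 22 members called higher, beside 241 to 559 of all genes, and 19 of the 21 were called under all of them. The exceptions were Edem1, at 0.998 with 5 reads added and 0.89 as a ratio of FPKM + 1, and Ero1lb, at 0.94 as a ratio of FPKM + 1 and not tested where a mean of at least 50 reads was asked. Sel1l was called under trimmed-mean scaling (1.04), median-of-ratios scaling (1.04) and relative to genes of like length (1.28). An assumed coefficient of variation of 0.1 between cultures left 21 members called, 0.2 left 4 and 0.4 left 0, with 296, 38 and 1 of all genes called higher and 831, 82 and 5 called lower. On the adjusted p alone 2 members were called lower. The median log2 ratio of the members was 0.92 under trimmed-mean and under median-of-ratios scaling, 0.88 under upper-quartile scaling and 0.99 relative to genes of like length. Without Hspa5 the fold of the members' share of reads was 2.21. Some small ratios turned from below to above 0. Mbtps1 was at 0.042 under trimmed-mean scaling, 0.048 under median-of-ratios scaling, 0.0049 under upper-quartile scaling and 0.11 relative to genes of like length. Derl2 was at 0.013, 0.019 and 0.050 under the first, second and last of these, and Os9 at 0.0041 and 0.036 under the second and last. Counted over the 250 bases before the start, 1 member held the ER stress element II. Over the whole 300-base window, 17 held the ER stress element with 1 mismatch allowed in CCACG, a setting chosen after seeing the data. What variation between cultures there was is unknown, and the ratios of Derl3 and Ero1lb rest on under 100 reads each. No paired analysis was possible because only 1 library represented each condition.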
